A study of Mus musculus with 32 samples.

Results

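The circadian clock genes described here are Per1, Per2, Per3, Cry1, Cry2, Arntl (also named Bmal1), Nr1d1, Nr1d2, Dbp and Tef. They were found by gene symbol, each as 1 row of a table of 23958 genes, and 10 of 10 members passed the filter on low counts. In Ensembl terms, as the table lists them, Per1 is ENSMUSG00000020893 on chromosome 11, Per2 is ENSMUSG00000055866 on chromosome 1, Per3 is ENSMUSG00000028957 on chromosome 4, Cry1 is ENSMUSG00000020038 on chromosome 10, Cry2 is ENSMUSG00000068742 on chromosome 2. Of the others, Arntl is ENSMUSG00000055116 on chromosome 7, Nr1d1 is ENSMUSG00000020889 on chromosome 11, Nr1d2 is ENSMUSG00000021775 on chromosome 14, Dbp is ENSMUSG00000059824 on chromosome 7 and Tef is ENSMUSG00000022389 on chromosome 15. They were measured in the frontal cortex (the infralimbic and prelimbic areas, per the series' design text) of 32 mice. Of these mice, 12 were inoculated with gut microbiota from humans, 8 with gut microbiota from squirrel monkeys (Saimiri boliviensis) and 12 with gut microbiota from macaques (Macaca mulatta). No group of uninoculated mice was analysed here, so each difference is between donor groups. The strain, sex and age of the mice, the number of donors and the hour at which the cortex was taken are given in no source used here. The levels of most of these genes change through the day, so the hour of collection bears directly on them, and its part in any difference was not tested. No time course was analysed here.

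The clock is a feedback loop of transcription. ARNTL pairs with CLOCK or its relative NPAS2, and the pair binds E-box sequences and switches on the Per and Cry genes, Nr1d1, Nr1d2, Dbp and Tef. PER and CRY proteins return to the nucleus and block the pair, and NR1D1 and NR1D2 (REV-ERB alpha and beta) shut off Arntl by binding the same elements as the activating ROR receptors. DBP and TEF are transcription factors that bind D-box sequences and carry the rhythm to other genes. The master clock of mammals is in the suprachiasmatic nucleus of the hypothalamus. Neurons and glia of the cortex also run the loop, and in rodents the transcript of Arntl there peaks at a time of day far from that of Dbp and the Per genes.

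The elements through which the loop acts are shown first, because they tie the members to each other. RefSeq start sites (GRCm38.p6, a build other than the GRCm39 named for the counts) were found for 9 of the 10 members, 12 start sites in all, and Per2 is named only. Each window held 250 bases before and 50 bases after a start site and was searched on both strands. In the lines that follow, sequences run 5′ to 3′ on the strand of the gene, and the capitals mark the motif. The E-box CACGTG, to which the ARNTL pair binds, was in the windows of Per1 (chr11:69098756-69098815, plus strand), Cry1 (chr10:85185082-85185141, minus strand) and both start sites of Tef (chr15:81802519-81802578 and chr15:81811249-81811308, plus strand). Per1 held it 166 bases before its start, Cry1 60 bases before, and Tef 127 and 138 bases before its 2 starts.
Per1 E-box: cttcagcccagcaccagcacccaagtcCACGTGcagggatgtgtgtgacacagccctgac
Cry1 E-box: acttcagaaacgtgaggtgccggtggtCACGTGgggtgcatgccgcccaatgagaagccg
Tef E-box, start site 1: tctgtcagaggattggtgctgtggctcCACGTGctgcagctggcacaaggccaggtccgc
Tef E-box, start site 2: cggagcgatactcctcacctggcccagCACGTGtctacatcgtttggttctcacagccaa

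The D-box TTATGNAA, which DBP and TEF bind, was in the windows of Per1 (chr11:69098889-69098948, plus strand), 24 bases before the start, and of Per3 (chr4:151044790-151044896, minus strand), 205 and 158 bases before the start.
Per1 D-box: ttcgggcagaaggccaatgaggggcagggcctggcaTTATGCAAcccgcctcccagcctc
Per3, 2 D-boxes: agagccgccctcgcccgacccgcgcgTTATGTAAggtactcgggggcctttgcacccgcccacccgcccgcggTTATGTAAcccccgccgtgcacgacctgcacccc

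The ROR element TAGGTCA, at which ROR receptors and NR1D1 or NR1D2 compete, was in the window of Arntl (chr7:113207530-113207559, plus strand), 31 bases after the second start site. The cyclic AMP response element half-site TGACGT, through which Per1 is known to respond to cell signalling, was in the window of the second start site of Per1 (chr11:69099993-69100052, plus strand), 132 bases before it.
Arntl ROR element: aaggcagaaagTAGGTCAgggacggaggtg
Per1 CRE half-site: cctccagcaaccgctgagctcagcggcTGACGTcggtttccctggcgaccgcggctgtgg

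Of all 32851 RefSeq promoter windows of that length, 7.15% held the E-box, 3.38% the D-box, 2.61% the ROR element and 7.51% the CRE half-site. None of these 4 motifs was found in the windows of Cry2, Nr1d1, Nr1d2 and Dbp, which says only that these letters are not in those windows. No motif overlapped another in the windows shown.

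Depth was 1035036 to 2089308 counts per mouse (median 1534710.5), and 1 count in a mouse of median depth corresponds to 0.652 CPM (counts scaled to the same library total in each mouse, with TMM factors that adjust for composition). The method reads tags near the 3′ end of transcripts and CPM is not divided by length, so levels are compared between mice and not between genes. No batch mixed donors: batches A (4 mice) and B (8) held human-inoculated mice, C (4) and D (4) squirrel monkey-inoculated mice, E (5) and F (7) macaque-inoculated mice. Libraries of different donors also lay in different columns of the library plate. Donor cannot be told apart from batch or plate column in any comparison below. Excitatory neuron markers summed to 3485 to 5329 CPM over the 32 mice and none of the 10 was at 0 in all mice, and the 10 suprachiasmatic nucleus markers summed to 106 to 208 CPM. Of the latter, 4 passed the filter. Vip, which cortical interneurons also express, averaged 78.6 CPM and was the highest, and Avp, Lhx1 and Nms had 66, 15 and 9 counts over all mice. The summed level of 12 oligodendrocyte markers was 779 to 10671 CPM in human-inoculated, 904 to 5507 in squirrel monkey-inoculated and 679 to 3743 in macaque-inoculated mice.

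Across the donor groups, 1 of 10 clock genes was called in any pair of groups. Cry2, which encodes a repressor of the ARNTL pair, was 1.17-fold higher in human-inoculated than in macaque-inoculated mice. In that comparison 1 of 10 members was called at an adjusted p under 0.05 by edgeR's quasi-likelihood test with Benjamini-Hochberg adjustment over 12651 genes, where 8.01% of all genes were called. The 1 member was higher, and 4.47% of all genes were called higher and 3.54% lower. Squirrel monkey against macaque gave 0 of 10 members (0.64% of all genes, 0.387% higher and 0.253% lower) and human against squirrel monkey 0 of 10 (0.134% of all genes, 0.0158% higher and 0.119% lower). At an unadjusted p under 0.05 these comparisons gave 1 and 0 members, against 13.2% and 10% of all genes, and DESeq2 and limma voom also called 0 in each. The F-test of any difference among the donor groups called 0 of 10 members (6.15% of all genes), with 2 members at an unadjusted p under 0.05 (21% of all genes).

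**Figure D1:**
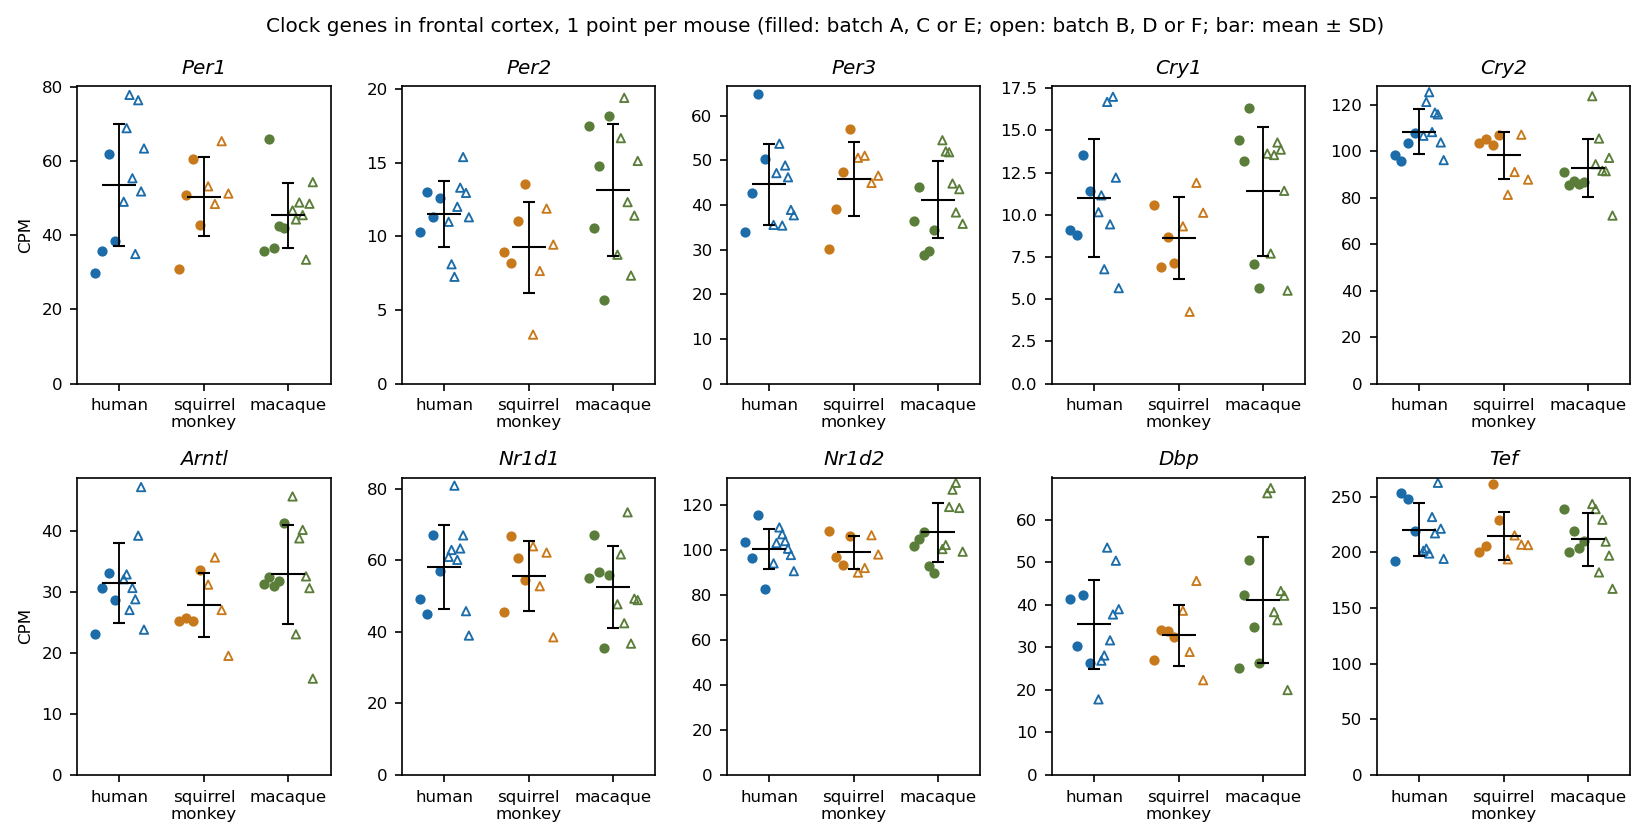
Level of each clock gene (CPM, linear axis from 0) in the 32 mice, 1 point per mouse, by donor of the microbiota on the horizontal axis. Filled points are batches A, C and E, open points batches B, D and F, and bars give mean ± SD. Cry2 lies between 95.7 and 125 CPM in human-inoculated mice, with 9 of 12 macaque-inoculated mice below that range, and the groups overlap in every panel.

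**Figure D2:**
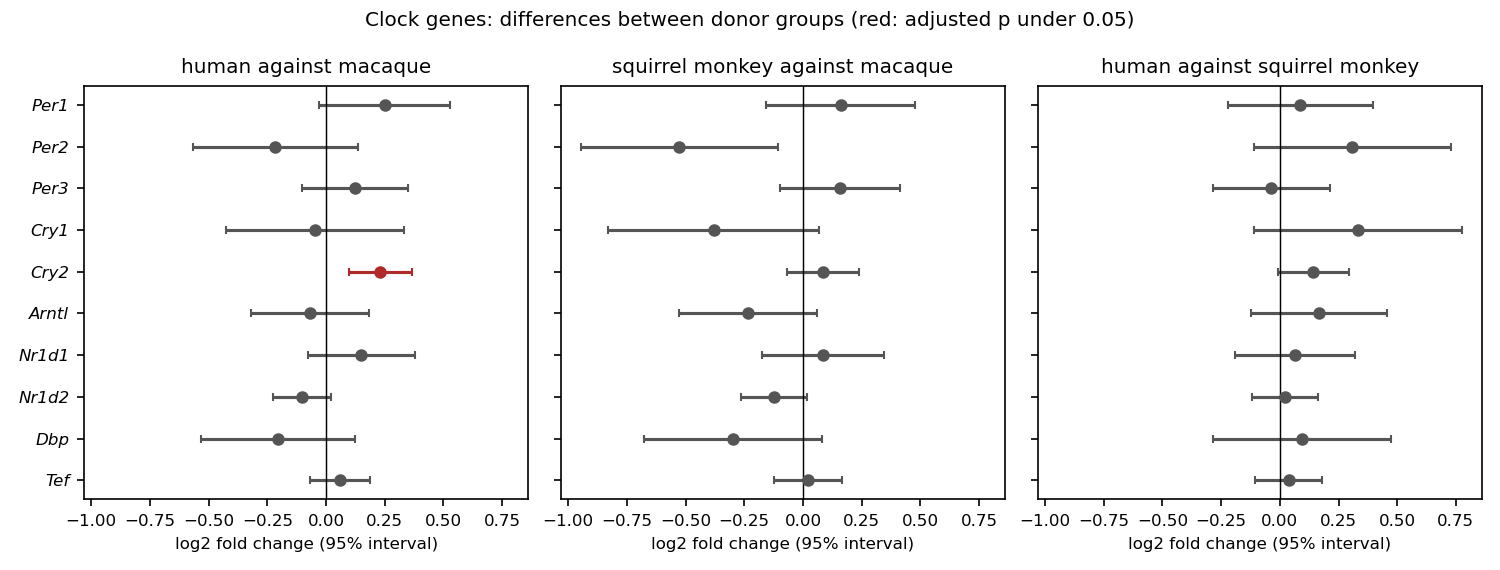
Log2 fold change of each clock gene on the horizontal axis (point) with its 95% interval (line), in 1 panel for each pair of donor groups. The point in red, Cry2 in human against macaque (0.23), is the only one with an adjusted p under 0.05.

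Arntl, the activator of the loop, whose transcript peaks far from those of Dbp and the Per genes, did not separate the groups. Its level ran from 23.1 through a median of 30.7 to 47.3 CPM in human-inoculated mice, from 19.6 through 26.5 to 35.7 in squirrel monkey-inoculated mice and from 15.8 through 32.2 to 45.7 in macaque-inoculated mice. The 3 ranges overlapped broadly, and the lowest mouse of all was macaque-inoculated. Arntl differed by -0.07 ± 0.12 (log2 fold change ± SE) in human against macaque, with a 95% interval of -0.32 to 0.18 and an adjusted p of 0.799 by edgeR. In squirrel monkey against macaque the difference was -0.23 ± 0.14 (interval -0.53 to 0.06, adjusted p = 0.51), and in human against squirrel monkey it was 0.17 ± 0.14 (interval -0.12 to 0.46, adjusted p = 0.757). Each interval holds the differences compatible with these mice under a fit that had no batch term.

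Among the Period genes, which encode the PER repressors, none was called, and they did not lean one way. Per1, a member quickly induced by signals to the cell, had 29.8, 53.6 and 77.9 CPM (lowest, median and highest mouse) with human, 30.97, 51.1 and 65.4 with squirrel monkey and 33.4, 44.9 and 66.0 with macaque microbiota. The human-inoculated mice held the highest and the lowest value, and 3 of 12 were above every macaque-inoculated mouse. The log2 fold change of human against macaque was 0.25 ± 0.14 (adjusted p = 0.281), and without batch B it was -0.16. Per3, whose protein is thought to play a lesser part in the loop, had 34.0, 44.5 and 64.8 CPM, then 30.2, 46.9 and 57.0, then 28.8, 40.9 and 54.5 in the same order of groups. The log2 fold change of Per3 was 0.12 ± 0.11 in human against macaque (adjusted p = 0.559), and the groups overlapped over most of their ranges.

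Per2, a repressor that the core loop needs in mice, had the largest fold change of any member in a donor comparison, and it did not pass. It had 7.26, 11.7 and 15.4 CPM (lowest, median, highest) with human microbiota, 3.33, 9.21 and 13.6 with squirrel monkey and 5.66, 13.6 and 19.4 with macaque. Of 8 squirrel monkey-inoculated mice, 1 was above the macaque median, and 6 of 12 macaque-inoculated mice were above every squirrel monkey-inoculated mouse. Squirrel monkey against macaque gave -0.53 ± 0.21 (interval -0.95 to -0.11, unadjusted p = 0.0151, adjusted p = 0.249 by edgeR). Human against macaque gave -0.22 ± 0.17 (adjusted p = 0.489) and human against squirrel monkey 0.31 ± 0.21 (adjusted p = 0.664). Per2 rested on 5 to 33 counts per mouse, which limits what these values can show.

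The cryptochromes, partners of the PER proteins, gave the 1 called difference. Cry2 had 95.7, 107 and 125 CPM (lowest, median, highest) in human-inoculated mice, 81.2, 103 and 107 in squirrel monkey-inoculated mice and 72.3, 91.1 and 124 in macaque-inoculated mice. All 12 human-inoculated mice were above the macaque median, and 9 of 12 macaque-inoculated mice were below the lowest human-inoculated mouse. The groups overlapped, with the other macaque-inoculated mice at 97.1, 105 and 124 CPM. The means were 108 ± 9.70 CPM (SD, n = 12), 98.1 ± 9.99 (n = 8) and 92.6 ± 12.6 (n = 12). Cry2 rose by 0.23 ± 0.07 on the log2 scale in human against macaque, with a 95% interval of 0.10 to 0.36 and an adjusted p of 0.0252 by edgeR. In a bulk sample, a change in the share of a cell type and a change in RNA per cell cannot be told apart.

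By batch, the means of Cry2 also varied within donor species. The means were 101 ± 5.40 CPM in batch A and 112 ± 9.71 in batch B (human), 104 ± 1.92 in C and 91.74 ± 10.996 in D (squirrel monkey), and 87.1 ± 2.21 in E and 96.5 ± 15.6 in F (macaque). The 5 mice of batch E lay closely together, at 90.9, 85.4, 87.1, 85.6 and 86.6 CPM. In each pair of batches of the same donor species the difference did not pass: 0.15 ± 0.09 for B against A (adjusted p = 0.538), -0.19 ± 0.11 for D against C (adjusted p = 0.787) and 0.14 ± 0.09 for F against E (adjusted p = 1.0). The call in human against macaque was lost when counts were summed per batch (0.22, adjusted p = 0.226), without batch B (0.12, adjusted p = 0.454), without batch E (0.17, adjusted p = 0.286), without human replicate 7 (0.21, adjusted p = 0.0519) and with library total as a covariate (0.23, adjusted p = 0.0683). Human libraries were the deepest, with a median of 1657174.5 counts against 1503734.5 in macaque-inoculated mice. With the oligodendrocyte markers as a covariate, the difference in Cry2 was 0.23 (adjusted p = 0.0405). The gene also overlaps D930015M05Rik on the opposite strand in the annotation. Strand use in counting is not stated, so the value of Cry2 may include reads of that transcript. The last 300 bases of its 2 transcript ends matched no other gene's transcript over at least 100 bases at 95% identity.

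**Figure D3:**
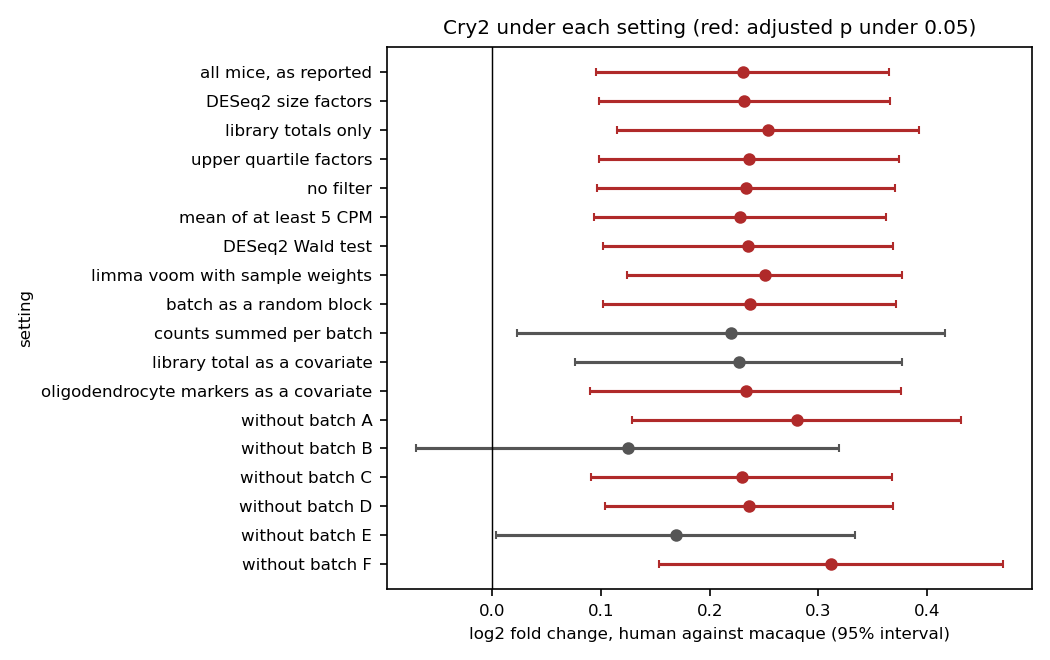
Log2 fold change of Cry2 in human against macaque (horizontal axis, point with 95% interval) under the reported setting and 17 others, 1 per line. The points run from 0.12 without batch B to 0.31 without batch F, all above 0, and red marks those with an adjusted p under 0.05.

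Cry1, the other cryptochrome, was not called. It had 5.65, 10.7 and 16.996 CPM (lowest, median, highest) with human, 4.25, 8.99 and 11.9 with squirrel monkey and 5.50, 13.4 and 16.3 with macaque microbiota. None of the 8 squirrel monkey-inoculated mice reached the macaque median, and 7 of 12 macaque-inoculated mice were above all of them. The log2 fold change was -0.38 ± 0.22 in squirrel monkey against macaque (interval -0.83 to 0.07, adjusted p = 0.483) and -0.05 ± 0.19 in human against macaque (interval -0.42 to 0.33, adjusted p = 0.915). The latter interval holds the value of Cry2, and the difference between the 2 genes was not tested. Cry1 rested on 5 to 32 counts per mouse.

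The REV-ERB repressors of Arntl, Nr1d1 and Nr1d2, were called in no comparison. Nr1d1 had 38.9, 60.5 and 80.8 CPM (lowest, median, highest) with human, 38.5, 57.5 and 66.7 with squirrel monkey and 35.4, 52.2 and 73.4 with macaque microbiota. Its log2 fold change of 0.15 ± 0.11 in human against macaque (adjusted p = 0.459) was within the spread between mice. Nr1d1 shares exon sequence on the opposite strand with Thra, the thyroid hormone receptor alpha gene. Thra had 508 ± 43.4, 507 ± 31.7 and 474 ± 33.9 CPM in the human, squirrel monkey and macaque groups. Reads of the shared exon sequence cannot be told apart without stated strand use, so the value of Nr1d1 is uncertain. The last 300 bases of Nr1d1 matched no other gene's transcript over at least 100 bases at 95% identity. Its r with Thra was 0.117 over the 32 mice after removal of batch means, given as a description.

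Nr1d2 was the member that varied least between mice. It had 82.7, 102 and 115 CPM (lowest, median, highest) with human, 89.8, 97.4 and 108 with squirrel monkey and 89.7, 103 and 130 with macaque microbiota. Above every mouse of either other group were 4 of 12 macaque-inoculated mice, at 118, 119, 127 and 130 CPM. All 4 were of batch F, and none was of batch E. The log2 fold change was -0.10 ± 0.06 in human against macaque (interval -0.23 to 0.02, adjusted p = 0.333) and -0.12 ± 0.07 in squirrel monkey against macaque (adjusted p = 0.4665). Without batch F, the difference in human against macaque was 0.01. At least 1 of 2 Nr1d2 transcript ends has a copy in AC170187.1, an unnamed gene model, so the counts of Nr1d2 may be shared.

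The output factors Dbp and Tef, which carry the rhythm to D-box genes, did not separate the groups either. Dbp, among the most rhythmic transcripts known in mouse tissues, had 17.8, 34.7 and 53.4 CPM (lowest, median, highest) with human, 22.3, 33.1 and 45.6 with squirrel monkey and 19.95, 40.2 and 67.4 with macaque microbiota. Macaque-inoculated mice held the highest 2 values, and 1 of 8 squirrel monkey-inoculated mice was above the macaque median. The log2 fold change was -0.30 ± 0.19 in squirrel monkey against macaque (interval -0.68 to 0.08, adjusted p = 0.52) and -0.20 ± 0.16 in human against macaque (adjusted p = 0.486). Dbp overlaps Sphk2, a sphingosine kinase gene, on the opposite strand. The end of the Dbp transcript matched Sphk2 in a search that did not record strand, so the match may be this same overlap. Sphk2 had 27.8 ± 2.66, 31.2 ± 6.82 and 32.6 ± 7.04 CPM in the same groups, with r = -0.0292 to Dbp over the 32 mice after removal of batch means, given as a description.

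Tef had 193, 218 and 262 CPM (lowest, median, highest) with human, 194, 207 and 262 with squirrel monkey and 167, 210 and 243 with macaque microbiota. Its log2 fold change of 0.06 ± 0.06 in human against macaque had a 95% interval of -0.07 to 0.19 and an adjusted p of 0.628. That interval reflects the spread between mice in a fit without batch, so it sets no limit on a donor difference of Tef apart from batch. The intervals of Cry2, Nr1d2 and Tef were the narrowest of the members, and those of Per2, Cry1 and Dbp the widest, as the plot of fold changes shows. Over the 10 members the median log2 fold change was 0.01 in human against macaque, where that of all genes was 0.00, with 5 members above 0. It was -0.05 in squirrel monkey against macaque (all genes 0.00), with 5 above 0, and 0.09 in human against squirrel monkey (all genes 0.01), with 9 above 0. Of all genes, 49.8%, 50.2% and 52.4% were above 0 in these comparisons, in the same order. The members were read in the same mice, and in human against squirrel monkey the signs of Per1, Nr1d1, Nr1d2 and Tef turned without 1 batch. The median size of the log2 fold change, regardless of sign, was 0.136 over the members and 0.122 over all genes in human against macaque. It was 0.160 and 0.110 in squirrel monkey against macaque, and 0.0911 and 0.0997 in human against squirrel monkey. The 3 comparisons share groups of mice and are not independent.

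Batches of the same donor species were compared as well. Whether they share individual donors is given in no source used here. None of the 10 members was called in any of the 3 pairs of batches by edgeR, where 0.0237% of all genes were called for B against A, 0% for D against C and 0% for F against E. DESeq2 and limma voom also called 0 members in each. The members at an unadjusted p under 0.05 numbered 1 for B against A (11.6% of all genes), 0 for D against C (6.98%) and 2 for F against E (3.15%). The F-test of any difference between batches of the same donor species called 0 members (0% of all genes), with 1 at an unadjusted p under 0.05 (8.55% of all genes). The 3 members behind the counts for pairs of batches were Per1, Per3 and Nr1d2, chosen for mention after their values were seen. Per1 averaged 41.4 ± 14.1 CPM in batch A and 59.8 ± 14.7 in batch B, a log2 difference of 0.56 ± 0.19 (adjusted p = 0.273). This was larger than any difference of Per1 between donor groups. Per3 averaged 34.7 ± 6.12 CPM in batch E and 45.8 ± 7.22 in batch F, a log2 difference of 0.41 ± 0.16 (adjusted p = 1.0). Nr1d2 averaged 99.4 ± 7.86 CPM in E and 114 ± 12.9 in F, a log2 difference of 0.20 ± 0.09 (adjusted p = 1.0).

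The members differed in how much they varied between mice of the same donor species. The gene-wise biological coefficient of variation, the spread beyond counting error that edgeR estimates and draws toward the trend of all genes at that level, was 24.9% for Dbp where the trend was 14.6%. It was 20.9% for Per1 (trend 13.4%) and 16.4% for Nr1d1 (trend 13.1%). Below their trend were Cry2 (8.73%, trend 12.7%), Nr1d2 (7.94%, trend 12.7%) and Tef (10.01%, trend 12.4%). Per2, Per3, Cry1 and Arntl lay near it, with 18.99%, 14.8%, 21.3% and 16.1% where the trend was 19.96%, 13.96%, 20.5% and 15.2%. No test was made of these gaps. Split by source, 30.9% of the variance of log2 CPM of Cry2 lay between donor species, 16.8% between batches of a donor species and 52.3% within batches. The medians over all genes were 8.14%, 8.95% and 79.8%. For Dbp 90.2% lay within batches, and for Per1 72.0%, with 22.1% between batches of a donor species and 5.93% between donor species.

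**Figure D4:**
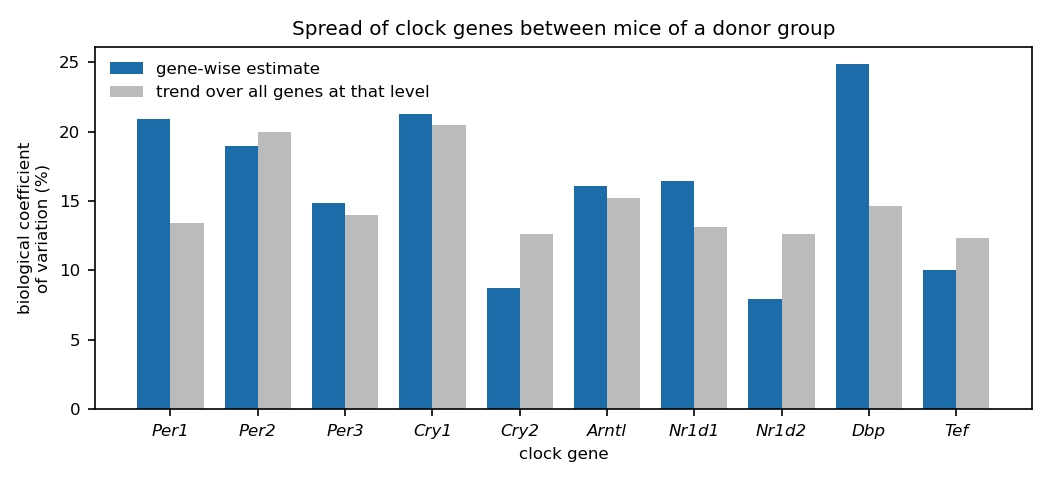
Biological coefficient of variation (%, vertical axis from 0) of each clock gene between mice of the same donor group, with the gene-wise estimate in blue and the trend of all genes at that level in grey. Dbp (24.9% against 14.6%) and Per1 (20.9% against 13.4%) stand above the trend, and Cry2, Nr1d2 and Tef below it.

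Whether the members vary together among mice was examined over 45 pairs in 32 mice after removal of batch means. Pearson's r was positive in 39 pairs and negative in 6, from -0.0792 to 0.523 with a median of 0.182, and library composition and depth are shared by every pair. In 1 of 45 pairs the adjusted p was under 0.05 in a two-sided permutation test within batches. That pair was Per3 with Cry2 (r = 0.474, permutation p = 0.00083, adjusted p = 0.0373, rho = 0.581, adjusted p = 0.0342). Without the 2 mice farthest from the median of Per3 its r was 0.523. Within donor groups r was 0.68 in human-inoculated, -0.09 in squirrel monkey-inoculated and 0.63 in macaque-inoculated mice, and with donor means removed in place of batch means it was 0.382 (adjusted p = 0.274).

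Cry1 with Nr1d2 had the highest r, 0.523 (permutation p = 0.00244, adjusted p = 0.0549), with a rho of 0.562 (adjusted p = 0.0387). Its r without the 2 farthest mice was 0.4658. The next pairs by p were Per3 with Nr1d1 (r = 0.478, rho = 0.505, adjusted permutation p = 0.102) and Per1 with Per3 (r = 0.501, rho = 0.450, adjusted permutation p = 0.19). Without the 2 farthest mice these were 0.41 and 0.57. Genes whose transcripts peak far apart in the day showed no strong negative r. Dbp with Arntl had r = 0.317 (rho = 0.114, adjusted permutation p = 0.445), and -0.0153 without macaque replicates 6 and 12, so that this value rests on those mice. Per1 with Arntl had r = -0.00362 and Per2 with Arntl had r = -0.0425, with adjusted permutation p of 0.986 and 0.973. Cry2 with Arntl had r = 0.481 (rho = 0.189, adjusted permutation p = 0.234), and 0.0573 without the same 2 mice. Dbp with its relative Tef had r = 0.406 (rho = 0.318, adjusted permutation p = 0.198), and 0.239 without the 2 farthest mice.

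**Figure D5:**
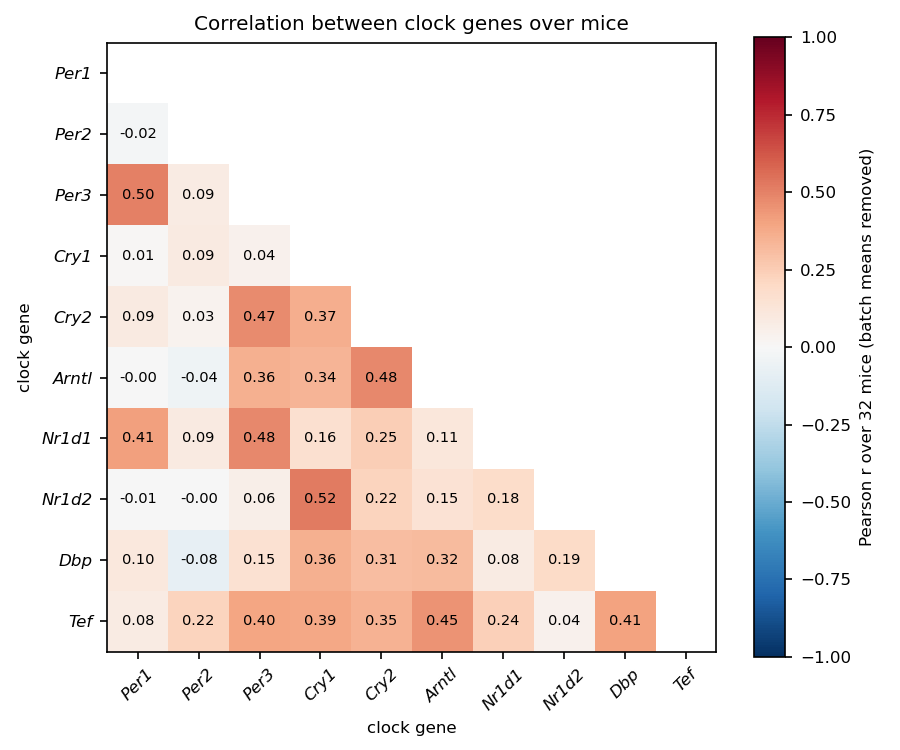
Pearson's r between each pair of clock genes (axes list the genes) over 32 mice after removal of batch means, with colour from -1 (blue) to 1 (red) and the value written in each cell. Of 45 cells 39 are above 0, the highest being Cry1 with Nr1d2 (0.52) and Per1 with Per3 (0.50), and the lowest is Per2 with Dbp (-0.08).

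No clock member was among the 6 genes most like Dbp or the 6 most like Arntl in their variation among mice. Among 12134 genes with a mean of at least 5 CPM, the 6 with the highest r to Dbp were Fam173a (0.73), Slc13a4 (0.70), Palm (0.69), Aifm3 (0.65), Cmss1 (0.65) and Zkscan2 (0.63). The 6 lowest were Preb (-0.69), St13 (-0.68), Aatk (-0.66), Hnrnpa0 (-0.66), Snrpd3 (-0.65) and Bop1 (-0.65). Tef, the closest member, was at rank 357 of 12133. For Arntl the highest were Dennd1c (0.81), Kcnb2 (0.77), Nav1 (0.76), Vmn1r72 (0.76), Cdc42ep3 (0.75) and Ttc14 (0.75), and the lowest Anp32a (-0.79), Degs1 (-0.78), Chgb (-0.77), Dstn (-0.76), Blnk (-0.76) and Rgs2 (-0.76). Cry2, the member closest to Arntl, was at rank 428 of 12133. These r values are the extremes of 12134 values over 32 mice and are given as a description.

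Per1 is also an immediate early gene and a target of the glucocorticoid receptor, so the members were set beside Fos, a marker of recent neuronal activity, and Fkbp5, a target of that receptor. None of the 20 relations passed (adjusted permutation p of 0.423 or more). Per1 with Fos had r = 0.335 and rho = 0.398, and Arntl with Fkbp5 had r = -0.436 and rho = -0.393. Without the 2 farthest mice r was 0.297 and -0.374. Fos itself differed by -0.40 ± 0.32 in human against macaque (adjusted p = 0.491), and Fkbp5 by 0.45 ± 0.14 in squirrel monkey against macaque (adjusted p = 0.123). With the mean level of the oligodendrocyte markers, none of 10 members passed by Pearson's r, of which the largest in size was -0.414 for Nr1d1 (rho = -0.283, adjusted permutation p = 0.323, and -0.271 without the 2 farthest mice). By Spearman's rho Per2 passed (rho = -0.477, adjusted permutation p = 0.044, r = -0.294, and r = -0.42 without the 2 farthest mice). Cry2 had r = 0.00649 with these markers and -0.307 without macaque replicates 6 and 12.

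Other genes of the loop were called in no pair of donor groups. Of 22 listed genes 20 were tested. Human against macaque gave 0 calls (8.01% of all genes), squirrel monkey against macaque 0 (0.64%) and human against squirrel monkey 0 (0.134%). The median log2 fold changes of the list were -0.02, -0.05 and 0.02 in the same order. Single genes ranged from -0.50 to 0.34 in squirrel monkey against macaque and from -0.42 to 0.39 in human against squirrel monkey. The list held Clock, the partner of Arntl, which had 106 ± 8.93, 103 ± 7.86 and 107 ± 15.4 CPM in the human, squirrel monkey and macaque groups. In the F-test of any difference, Npas2, the other partner of ARNTL and a gene of the forebrain, passed by a narrow margin (adjusted p = 0.0491). That test called 6.15% of all genes. Npas2 had 24.9 ± 5.30 CPM with human, 18.96 ± 3.58 with squirrel monkey and 26.7 ± 4.65 with macaque microbiota. Its log2 fold change was -0.50 ± 0.14 in squirrel monkey against macaque (adjusted p = 0.0698) and 0.39 ± 0.14 in human against squirrel monkey (adjusted p = 0.263). In 38 of 46 alternative settings the adjusted p of Npas2 in the F-test was above 0.05, up to 0.349.

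Csnk1d, a kinase of PER proteins, had an adjusted p of 0.242 in the F-test, and Rorb, a ROR receptor of the cortex, 0.334. Csnk1d averaged 108 ± 6.39, 105 ± 9.33 and 117 ± 15.5 CPM in the human, squirrel monkey and macaque groups. Rorb averaged 53.8 ± 8.80, 49.9 ± 8.32 and 60.9 ± 19.6 CPM. Both were highest on average with macaque microbiota, and neither passed.

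Among 16 tested genes of clock output, 2 were called in human against macaque, where 8.01% of all genes were called. In squirrel monkey against macaque 0 were called (0.64% of all genes), and in human against squirrel monkey 0 (0.134% of all genes). The 2 called genes were Hspa8 and Hsp90aa1, both in human against macaque. Hspa8, a heat shock protein gene, rose by 1.02 ± 0.13 on the log2 scale (483 ± 126 against 237 ± 30.8 CPM, adjusted p = 1.27e-06 by edgeR). Hsp90aa1, another, fell by 0.26 ± 0.06 (1269 ± 154 against 1520 ± 126 CPM, adjusted p = 0.0034). Whether copies of Hspa8 take part of its reads was not tested. Of 21 immediate early genes, Nr4a2 was called, higher by 0.84 ± 0.20 in squirrel monkey against macaque (0.64% of all genes called). Of 15 tested glucocorticoid responsive genes, Ddit4 was called in human against macaque (0.70 ± 0.21, with 8.01% of all genes called). Txnip was called in squirrel monkey against macaque (1.11 ± 0.26, with 0.64% of all genes called). All 15 of these glucocorticoid responsive genes had a log2 fold change above 0 in squirrel monkey against macaque, with a median of 0.44. Of all genes 50.2% were above 0 there, with a median of 0.00. The 15 genes were read in the same mice and are not 15 independent observations. The median of the clock members in that comparison was -0.05, and a relation between the 2 lists was not tested. Of the calls in this paragraph, that of Hspa8 held in 49 of 49 alternative settings, that of Hsp90aa1 in 47 (not without batch A or F), that of Nr4a2 in 33, that of Ddit4 in 33 and that of Txnip in 38.

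Markers of cell types were counted in the same comparisons. In human against macaque, where 8.01% of all genes were called, 3 of 12 oligodendrocyte markers were called higher (Cldn11, 1.502 ± 0.47, Mal, 1.25 ± 0.40, and Mog, 1.43 ± 0.46). All 12 were above 0, against 49.8% of all genes, and they were read in the same mice. In the same comparison 1 of 10 astrocyte markers (Fgfr3, 0.34), 1 of 10 endothelial markers (Ly6c1, 0.40), 1 of 10 inhibitory neuron markers (Slc32a1, 0.45), 1 of 7 tested striatum markers (Penk, 1.03) and 1 of 8 tested meningeal markers (Igf2, 0.99) were called higher. Of 10 excitatory neuron markers Slc17a7 was higher (0.25) and Neurod6 lower (-0.41). None of 10 microglia, 4 tested suprachiasmatic nucleus and 3 tested choroid plexus markers was called. In squirrel monkey against macaque (0.64% of all genes called), Igf2 (1.47) was higher and Neurod6 (-0.64) lower. Human against squirrel monkey (0.134% of all genes called) gave 0 calls in these lists. Each of these marker calls was lost in 5 to 9 of 17 settings other than removals of 1 mouse. Among the 17 is the oligodendrocyte covariate, a mean of the oligodendrocyte markers themselves. The loss of Cldn11, Mal and Mog under it follows from its making and shows nothing about those calls. Without human replicate 7, Penk was 0.42 and Slc32a1 0.29, and neither was called. Without human replicate 12, Cldn11 was 1.05, Mal 0.88 and Mog 0.85, and none was called. Of 32 removals of 1 mouse, 18 ended the call of Mog, 13 that of Mal, 11 that of Cldn11, 14 that of Ly6c1, 12 that of Fgfr3 and 7 that of Neurod6 in human against macaque. The call of Igf2 was lost in 3 removals there and in 1 in squirrel monkey against macaque, that of Neurod6 in 3 in the latter, and that of Slc17a7 in 0. The part of cell composition in the difference of Cry2 was not tested beyond the oligodendrocyte covariate.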

How the data were processed

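Frontal cortex RNA was prepared with a tag-based method (TagSeq) and sequenced from 1 end of each fragment, per the labels' protocols. Raw counts per Ensembl gene, which the authors deposited as 1 table, were used. The build in the submitters' processing notes is GRCm39, and the aligner, the counting tool, the use of strand and the handling of duplicates are named in no source used here. Another 3 columns of the table belong to no listed sample and were left out. Of its rows, 76 had no gene symbol (0.031% of counts).

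The filter filterByExpr, grouped by donor, kept 12651 genes at a minimum count of 10 and a minimum total of 15, and TMM factors were 0.955 to 1.04. The quasi-likelihood test of edgeR 4.0.16 (R 4.3.3) was fitted to all 32 mice with donor group as the only term, and again with the 6 batches as levels. Adjusted p-values are Benjamini-Hochberg values over these genes, called under 0.05. Intervals at 95% use the t distribution of that test. Correlations used log2 CPM (prior count 2) and 100000 permutations within batches. Apart from batch and plate column, the labels name nothing that groups mice, so p-values measure the spread between mice, which may in part be technical. For the 160 pairs of mice within a donor group, chi-square per degree of freedom was 1.41 to 7.24, and 0 pairs held identical counts.

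The clock genes and all gene lists were chosen with earlier results of these data known. The rule for named genes takes every clock gene, up to 4 called members of each other list in each comparison, the 4 other loop genes of smallest p in the F-test, and the 6 genes of highest and lowest r to Dbp and Arntl. Clock was named after its values were seen. A gene that the rule takes is not reported here. Overlapping genes and 3′ copies (at least 100 bases at 95% identity within the last 300 bases) came from GENCODE M21. Alternatives covered scaling, filters, DESeq2 1.42.0, limma 3.58.1, covariates, batches and single mice.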

Additional observations from a re-analysis of the deposited data

Results flagged for a closer look

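In 70 checks, each of 1 clock gene in 1 of the 6 batches or in the squirrel monkey group, a mouse stood apart from the rest by Dixon's criterion in 3, where chance flags about 1 in 20. Per1 was 66.0 CPM in macaque replicate 2 of batch E, where the next of 5 mice was at 42.5. Arntl was 33.7 CPM in squirrel monkey replicate 4 of batch C, where the next of 4 mice was at 25.8. Arntl was 41.4 CPM in macaque replicate 5 of batch E, where the next of 5 mice was at 32.6. The cause was not tested.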

How the results depend on the processing

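The count of called clock genes in human against macaque fell from 1 to 0 with counts summed per batch, with library total as a covariate, without batch B and without batch E, and ranged from 0 to 1 over removals of 1 mouse (0 without human replicate 7). The log2 fold change of Cry2 was 0.20 to 0.27 over those removals. In the F-test the count went from 0 to 1 with library totals only, and ranged from 0 to 1 over removals of 1 mouse (1 without human replicate 12, macaque replicate 6 or macaque replicate 8). The count of called pairs went from 1 to 0 with donor means removed. In each case the cause was not tested. Log2 fold changes that turned direction were all of clock genes without a call. In human against macaque these were Per1 without batch B (-0.16), Per3 without batch E (-0.038), Cry1 with library total (0.060) or oligodendrocyte markers (0.026) as a covariate, Arntl with the same covariates (0.012 and 0.0092) and Nr1d2 without batch F (0.013). Removals of 1 mouse gave -0.13 to 0.015 for Cry1. In squirrel monkey against macaque they were Cry2 (-0.0044) and Tef (-0.036) without batch C, with -0.022 to 0.044 for Tef over removals of 1 mouse. In human against squirrel monkey they were Per1 without batch B (-0.32) or C (-0.032), Per3 without batch B (0.040) or D (0.036), Nr1d1 without batch B (-0.052), Nr1d2 without batch B (-0.0050) or D (-0.012), and Tef without batch D (-0.025), with -0.10 to 0.011 for Per3 over removals of 1 mouse. Counts of called members in the other comparisons did not change under any setting run. For genes of the other lists, the alternatives were chosen after seeing the data. No direction turned among them. No paired analysis was possible because the labels give no replicate numbers shared between donor groups. Depth limits Per2 and Cry1 most, which had as few as 5 counts in a mouse.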
